A study of Rattus norvegicus with 14 samples.

Results

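The genes described here handle magnesium or are tied to its handling: Magt1, Slc41a3, Cnnm4, Nipal2 and Egf. They are 5 of the 4736 genes named by a single symbol on an Affymetrix rat oligonucleotide array, and they were taken as every probe set that the platform annotation assigns to one of these symbols. That gave 8 probe sets: 1 each for Magt1, Slc41a3 and Nipal2, 2 for Egf and 3 for Cnnm4. Of the 8, 6 were bright enough to be tested for differences between diets, and these 6 cover all 5 genes.

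The samples are rat liver, taken at necropsy from the left lateral lobe, and RNA was measured on 14 arrays. The diets are labelled Mg++ supplemented (5 arrays, numbered 1 to 5), standard diet (5 arrays, 6 to 10) and Mg++ deficient (4 arrays, 11 to 14). The sources used here give no strain, sex, age, magnesium content or feeding time, and no agent or genotype is named for any diet. Separate animals are not stated, so p-values measure the spread between these arrays, part of which may be technical. As a check of the tissue, all 9 hepatocyte markers on the array, among them Alb and Ttr, lay above the dim-signal level described below on each of the 14 arrays.

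Magnesium enters and leaves cells through channels and carriers rather than by diffusion, and the body's balance is set mainly by uptake in the gut and recovery in the kidney. Liver holds much magnesium bound to ATP and is one of the organs that exchange it with blood. Magt1 is a subunit of the oligosaccharyltransferase, which attaches sugars to new proteins in the endoplasmic reticulum, and has also been described as a magnesium transporter. Slc41a3 belongs to a family of sodium-magnesium carriers, Cnnm4 is linked to magnesium export across the basolateral membrane of gut cells, and Nipal2 belongs to a family related to the magnesium transporter Nipa1. Egf, the epidermal growth factor, is a hormone that raises the activity of the magnesium channel Trpm6 in kidney tubules.

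Signals are given as log2 of the normalised probe set signal, so that 1 unit is a doubling. Signals under 3.93 units (1.97 on the log2 scale) were set to that floor. A probe set was tested when its mean over the 14 arrays lay above 3.83 on the log2 scale, or 14.3 units, called the dim-signal level below. No detection calls were used, so whether a dim signal lies above background is unknown. Signals of different probe sets cannot be ranked against each other, so each gene is compared only with itself across diets.

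The Magt1 signal was higher on the supplemented diet than on either other diet, but the difference did not pass the test over all probe sets. On the supplemented arrays 1 to 5 the log2 signal was 7.93, 7.59, 7.76, 7.21 and 7.07. On the standard arrays 6 to 10 it was 6.77, 7.25, 6.74, 7.15 and 6.01. On the deficient arrays 11 to 14 it was 5.87, 6.51, 6.66 and 7.58. The supplemented arrays 1, 2 and 3 lay above each standard array, whereas arrays 4 and 5 overlapped with standard arrays 7 and 9. The deficient diet spread widest, with array 14 up among the supplemented arrays and array 11 the lowest of all.

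Supplemented arrays averaged 7.51 ± 0.37 (SD, n = 5), standard arrays 6.78 ± 0.49 (SD, n = 5) and deficient arrays 6.65 ± 0.71 (SD, n = 4). Supplemented minus standard was 0.73 on the log2 scale, or 1.66-fold, with a 95% interval from 1.05-fold to 2.61-fold (limma unadjusted p = 0.0310, adjusted p = 0.517). Deficient minus supplemented was -0.86 with a 95% interval from -1.55 to -0.17 (limma unadjusted p = 0.0185, adjusted p = 0.328). Deficient and standard arrays differed by -0.13, with an interval from -0.82 to 0.56 (limma adjusted p = 0.999). The moderated F-test for any difference among the 3 diets gave an adjusted p of 0.516 (limma; unadjusted p = 0.0331). Each pair of these comparisons shares the arrays of 1 diet. Without standard array 10, supplemented minus standard was 0.53 (limma unadjusted p = 0.0937). Without supplemented array 1, 2 or 3 it was 0.62, 0.71 and 0.67 (limma unadjusted p = 0.0760, 0.0536 and 0.0645). Deficient minus supplemented was -1.16 without deficient array 14 (limma adjusted p = 0.0817) and -0.60 without deficient array 11 (limma unadjusted p = 0.0845).

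These p-values were common in the whole table. In supplemented against standard, 8.88% of the 5133 probe sets tested had an unadjusted p under 0.05, and Magt1 ranked 304th by p. In deficient against supplemented 13.0% did, and Magt1 ranked 288th. In deficient against standard 3.04% did, and none of the 6 magnesium probe sets was among them. For the F-test the share was 9.00%. Thus 1 of the 6 magnesium probe sets, that of Magt1, passed an unadjusted p of 0.05 in supplemented against standard, in deficient against supplemented and in the F-test.

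**Figure D1:**
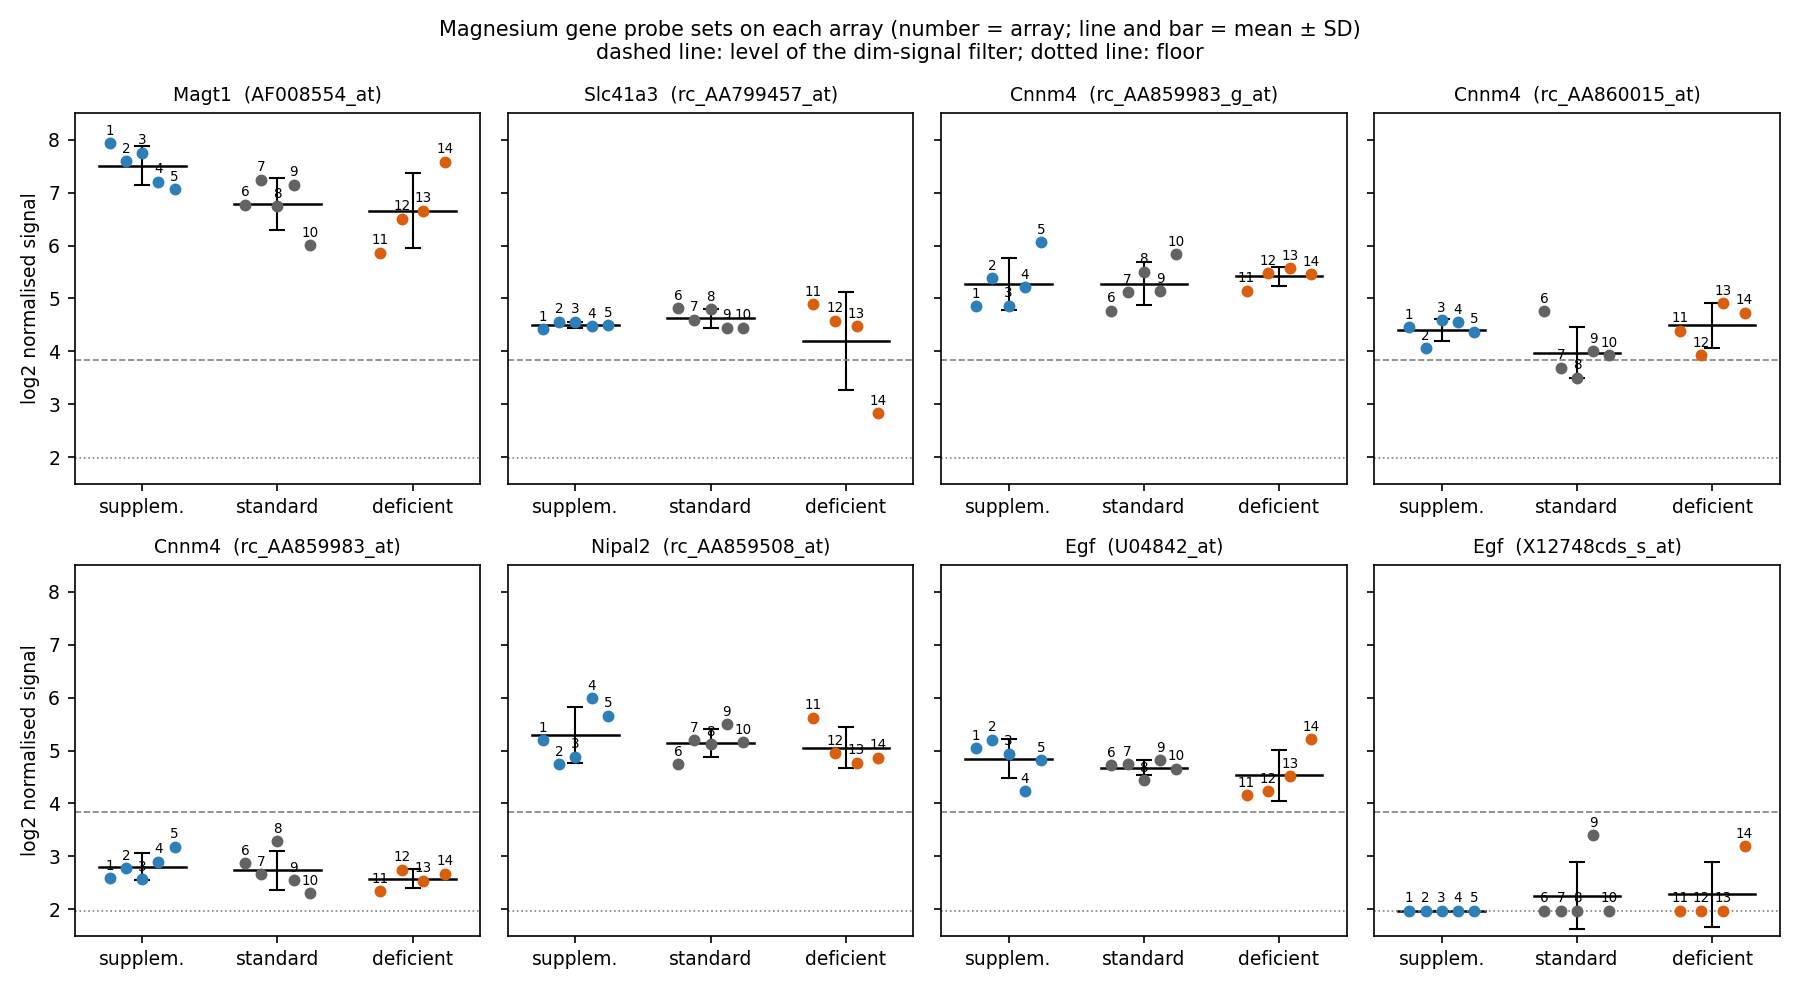
Log2 normalised signal (vertical axis) of the 8 magnesium gene probe sets on the supplemented, standard and deficient diets. Points are arrays with their numbers, lines and bars are mean ± SD, the dashed line is the dim-signal level at 3.83 and the dotted line the floor at 1.97. Magt1 sits highest on supplemented arrays 1 to 3, and the low Slc41a3 mean on the deficient diet comes with array 14 at 2.83.

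The Magt1 signal moved with the RNA quality of the arrays. Control probe sets on the array read Gapdh and beta-actin near the 3' and near the 5' end. The ratio of the 3' to the 5' signal is a usual measure of RNA integrity, and a high ratio goes with broken RNA. On the log2 scale, the Gapdh ratio ran from -0.12 to 1.12 on the supplemented, from 1.04 to 2.65 on the standard and from 1.12 to 2.68 on the deficient arrays. The log2 beta-actin ratio ran from 0.77 to 1.29, from 0.77 to 2.63 and from 0.85 to 2.85 on the same diets. Arrays with a higher ratio tended to have a lower Magt1 signal, with exceptions. Within the deficient diet, array 14 had both the lowest Gapdh ratio (1.12) and the highest Magt1 signal (7.58), and within the standard diet array 10 had the highest ratio (2.65) and the lowest Magt1 signal (6.01). Against this order for Gapdh, supplemented array 5 had the lowest Gapdh ratio of all (-0.12) and the lowest Magt1 signal of its diet (7.07). The beta-actin ratio of array 5 (1.29) was instead the highest of its diet, so the ratios differed there. Deficient array 13 had the highest ratio of all (2.68), while its Magt1 signal (6.66) was above those of deficient arrays 11 and 12.

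Over the 14 arrays, Magt1 and the Gapdh ratio gave Pearson's r = -0.696 (permutation p = 0.00546, adjusted 0.0328) and Spearman's rho = -0.811 (permutation p = 0.00079, adjusted 0.00474). With beta-actin, r reached -0.781 (permutation p = 0.00093, adjusted 0.0112) and rho was -0.859 (permutation p = 0.0002, adjusted 0.0024). The adjustment covers 12 relations, 6 probe sets with each ratio. When the pair of arrays with the most extreme ratios (deficient 13 and standard 10) was left out, r was -0.618 for Gapdh and -0.857 for beta-actin. With each diet's mean taken out, r was -0.460 for Gapdh (permutation within diets, p = 0.157) and -0.683 for beta-actin (permutation within diets, p = 0.0350). With the Gapdh ratio in the model, the Magt1 difference was 0.35 for supplemented minus standard and -0.39 for deficient minus supplemented (limma unadjusted p = 0.351 and 0.349). With the beta-actin ratio these were 0.41 and -0.34 (limma unadjusted p = 0.147 and 0.282). The whole table changed too. With the Gapdh ratio in the model, probe sets at a limma unadjusted p under 0.05 went from 456 to 132 in supplemented against standard. In deficient against supplemented they went from 669 to 113. The fall was smaller with the beta-actin ratio in the model, to 245 and 244 in the same comparisons. Gapdh ratios were mostly lower on the supplemented diet than on the others, so diet and RNA quality cannot be told apart here.

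**Figure D2:**
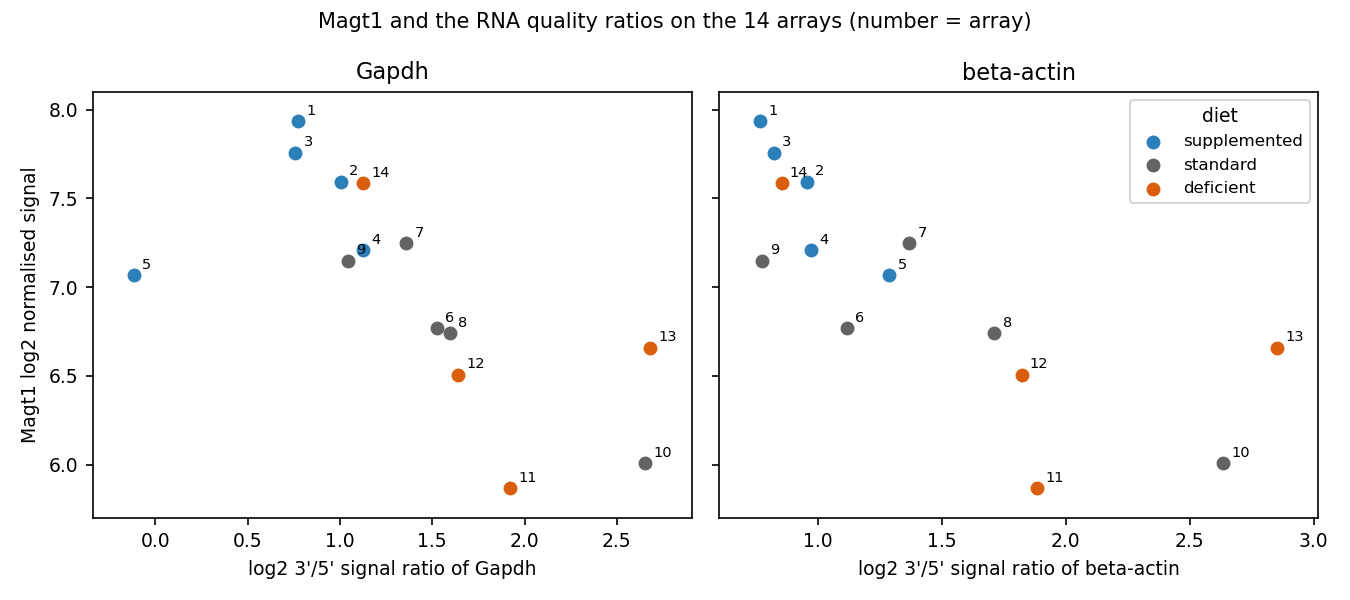
Magt1 log2 normalised signal (vertical axis) against the log2 3'/5' signal ratio of Gapdh (left) and beta-actin (right), with 1 numbered point for each of the 14 arrays coloured by diet. The signal falls from left to right, with Pearson's r = -0.696 for Gapdh and -0.781 for beta-actin, and supplemented array 5 stands apart on the left with a Gapdh ratio of -0.12.

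Markers of Kupffer cells, the macrophages of liver, had higher summed signals on the supplemented diet, with overlap between diets. Of the 7 markers listed, 3 were on the array, and their summed normalised signal was 804 to 1011 units on the supplemented, 594 to 834 on the standard and 604 to 848 on the deficient arrays. Clec4f, a Kupffer cell lectin, had a difference of 0.37 ± 0.15 (SE) between supplemented and standard arrays (limma unadjusted p = 0.0294, adjusted p = 0.516). C1qb, the other tested marker, was at 0.16 ± 0.16 (SE) in supplemented minus standard (limma unadjusted p = 0.325, adjusted p = 0.769), while Csf1r was too dim to be tested. The 6 pancreas markers on the array summed to 418 to 697 units on the supplemented arrays. On the standard arrays they summed to 331 to 598 units and on the deficient arrays to 322 to 403. Supplemented and deficient arrays thus did not overlap for this sum. Of all single probe sets tested, 4.95% did not overlap in that comparison. The summed endothelial, stellate, bile duct and lymphocyte markers overlapped between all diets. Among the pancreas markers the insulin gene Ins2 was at -0.99 ± 0.33 (SE) in deficient minus supplemented (limma unadjusted p = 0.00811, adjusted p = 0.274). Clps (-0.43) and Amy2a3 (-0.24) were also lower in this comparison, while Cela1 was higher (0.22 ± 0.43, SE). Prss1, which encodes trypsinogen, was at the floor on all 14 arrays. The part of any of these marker groups in the Magt1 difference was not tested. In whole liver, fewer cells of a type and less RNA in each cell cannot be told apart.

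In both comparisons with the supplemented diet, the other tested subunits of the oligosaccharyltransferase had smaller differences than Magt1. A list of 13 genes of this complex, Magt1 included, had 6 on the array, all of them tested. In supplemented against standard 4 of the 6 were higher and 2 lower, with a median difference of 0.026 beside -0.034 over the 3073 genes tested, where 45.1% were higher. Differences ran from -0.36 for Ddost to 0.73 for Magt1. Ddost, another subunit, was at -0.36 ± 0.17 (SE; limma unadjusted p = 0.0546, adjusted p = 0.547), and at -0.13 with the Gapdh ratio in the model. In deficient against supplemented 3 were higher and 3 lower, with a median of 0.0027 beside 0.055 over all genes, and in deficient against standard 2 were higher and 4 lower, with a median of -0.073 beside 0.013. The test called none of the 6 in any comparison.

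Slc41a3, the sodium-magnesium carrier, held a narrow range on 13 of the 14 arrays. Its log2 signal was 4.42, 4.56, 4.56, 4.48 and 4.49 on supplemented arrays 1 to 5. On standard arrays 6 to 10 it was 4.82, 4.60, 4.80, 4.45 and 4.45. On deficient arrays 11 to 13 it was 4.89, 4.58 and 4.47, and on deficient array 14 it dropped to 2.83, the only value below the dim-signal level. The deposited signal of that array was 5.63 units, while the highest, on deficient array 11, was 33.3 units.

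The diet means of Slc41a3 were 4.50 ± 0.06 (SD, n = 5) supplemented, 4.62 ± 0.18 (SD, n = 5) standard and 4.19 ± 0.92 (SD, n = 4) deficient. Deficient minus standard was -0.43 with a 95% interval from -1.13 to 0.27 (limma adjusted p = 0.999), and 0.023 without deficient array 14. The deficient minus supplemented difference was -0.31, with an interval from -1.01 to 0.39 (limma adjusted p = 0.704), and 0.14 without that array. Supplemented minus standard was -0.12 with an interval from -0.78 to 0.54 (limma adjusted p = 0.929). The deficient mean thus differed from the other means by less than the SD of its own diet (0.92), which includes array 14. Of the arrays left out singly, only array 14 turned the sign of the deficient differences.

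Cnnm4, the exporter, had 3 probe sets that did not run alike. The brightest, rc_AA859983_g_at, averaged 5.28 ± 0.50 (SD, n = 5) over supplemented arrays, 5.27 ± 0.41 (SD, n = 5) over standard arrays and 5.42 ± 0.19 (SD, n = 4) over deficient arrays. Its values were 4.86, 5.38, 4.86, 5.22 and 6.06 on supplemented arrays 1 to 5, and 4.77, 5.12, 5.51, 5.14 and 5.83 on standard arrays 6 to 10. On deficient arrays 11 to 14 they were 5.15, 5.48, 5.58 and 5.45. The diets overlapped, and supplemented array 5 was the highest of all. Supplemented minus standard was 0.0015, with a 95% interval from -0.53 to 0.54 (limma adjusted p = 0.999). Deficient minus standard was 0.14, with an interval from -0.43 to 0.71 (limma adjusted p = 0.999), and 0.014 without standard array 6 or 0.28 without standard array 10. Deficient minus supplemented was 0.14 with an interval from -0.43 to 0.71 (limma adjusted p = 0.848), and -0.18 with the beta-actin ratio in the model.

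The second Cnnm4 probe set, rc_AA860015_at, was lowest on the standard diet. It read 4.45, 4.06, 4.59, 4.55 and 4.37 on supplemented arrays 1 to 5 and 4.39, 3.92, 4.91 and 4.73 on deficient arrays 11 to 14. On standard arrays 6 to 10 it read 4.76, 3.69, 3.50, 4.00 and 3.93. Standard array 6 was thus as high as the other diets, while arrays 7 and 8 lay under the dim-signal level. Deficient minus standard was 0.51 with a 95% interval from -0.09 to 1.12 (limma unadjusted p = 0.0920, adjusted p = 0.999), and 0.71 without standard array 6. For supplemented minus standard it was 0.43 with an interval from -0.14 to 1.00 (limma adjusted p = 0.654), and deficient minus supplemented was 0.085 with an interval from -0.52 to 0.69 (limma adjusted p = 0.914).

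Over the 14 arrays these 2 Cnnm4 probe sets had r = -0.231 with each other, a description over arrays that share their scaling. The third, rc_AA859983_at, lay under the dim-signal level on all 14 arrays, between 2.30 and 3.29, and was not tested. Its deposited signals ran from 4.17 to 13.8 units. With no filter on dim signals its differences were -0.16 for deficient minus standard, 0.066 for supplemented minus standard and -0.23 for deficient minus supplemented (limma adjusted p = 1, 0.994 and 0.696). The 3 Cnnm4 probe sets thus differed in sign in both comparisons with the deficient diet. In supplemented minus standard all 3 were above 0, but rc_AA859983_g_at only at 0.0015, which reversed in 8 of 26 alternatives. No shared direction can be read from that.

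Nipal2, from the Nipa-like family, overlapped across all diets. Its log2 signal on supplemented arrays 1 to 5 was 5.20, 4.75, 4.88, 5.99 and 5.66. On standard arrays 6 to 10 it was 4.75, 5.19, 5.13, 5.50 and 5.16, and on deficient arrays 11 to 14 it was 5.62, 4.95, 4.77 and 4.87. Supplemented arrays 4 and 5 and deficient array 11 were the highest, and the lowest arrays of each diet lay close together, from 4.75 to 4.77.

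The Nipal2 means were 5.30 ± 0.52 (SD, n = 5) supplemented, 5.15 ± 0.27 (SD, n = 5) standard and 5.05 ± 0.39 (SD, n = 4) deficient. The supplemented minus standard difference was 0.15 with a 95% interval from -0.40 to 0.70 (limma adjusted p = 0.884), or 0.76-fold to 1.62-fold, and it was -0.023 without supplemented array 4. Deficient minus standard was -0.094 with an interval from -0.67 to 0.49 (limma adjusted p = 0.999), and ran from -0.29 without deficient array 11 to -0.00092 without deficient array 13. Deficient minus supplemented was -0.24 with an interval from -0.82 to 0.34 (limma adjusted p = 0.718), and -0.070 at the smallest with 1 array left out.

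Egf, the hormone of the group, was tested through the probe set U04842_at. Its log2 signal was 5.05, 5.21, 4.94, 4.23 and 4.82 on supplemented arrays 1 to 5. It was 4.72, 4.75, 4.44, 4.82 and 4.66 on standard arrays 6 to 10, and 4.15, 4.23, 4.52 and 5.22 on deficient arrays 11 to 14. Supplemented array 4 was as low as the lower deficient arrays, and deficient array 14 was the highest of all 14. The standard arrays kept closest together.

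The Egf means were 4.85 ± 0.38 (SD, n = 5) supplemented, 4.68 ± 0.14 (SD, n = 5) standard and 4.53 ± 0.49 (SD, n = 4) deficient. Deficient minus supplemented was -0.32 with a 95% interval from -0.86 to 0.22 (limma adjusted p = 0.592). It was -0.10 with the Gapdh ratio in the model and -0.20 without deficient array 11, but -0.55 without deficient array 14 (limma unadjusted p = 0.0384, adjusted p = 0.272). It was -0.50 with array weights (limma unadjusted p = 0.0475, adjusted p = 0.251) and -0.52 with values as deposited. Supplemented minus standard was 0.17 with an interval from -0.34 to 0.68 (limma adjusted p = 0.851), and -0.0036 with the Gapdh ratio in the model. Deficient minus standard was -0.15 with an interval from -0.69 to 0.40 (limma adjusted p = 0.999), and it lay between -0.37 and -0.021 with 1 array left out, the limits being reached without deficient arrays 14 and 11. Egf and the Gapdh ratio had rho = -0.723 over the 14 arrays (permutation p = 0.0048, adjusted 0.0192), whereas r was -0.463 (permutation p = 0.0980, adjusted 0.235). Without the same pair of extreme arrays r was -0.552, and with diet means taken out it was -0.316. Egf and the beta-actin ratio had rho = -0.692 (permutation p = 0.00776, adjusted 0.0233) and r = -0.526 (permutation p = 0.0529, adjusted 0.159). For beta-actin, r was -0.741 without that pair and -0.410 with diet means taken out. Of the remaining 4 probe sets (Slc41a3, Nipal2 and the 2 of Cnnm4), none passed an adjusted p of 0.05 with either ratio.

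The other Egf probe set, X12748cds_s_at, sat at the floor on 12 of the 14 arrays and was not tested. It left the floor only on standard array 9, at 3.40, and on deficient array 14, at 3.19, both still under the dim-signal level. Kidney tubules and salivary gland are the main known sources of Egf. Of the 6 kidney tubule markers on the array, Slc12a1 was at the floor on all 14 arrays and Calb1 on 12. Umod lay above the dim-signal level on 13 arrays, Slc34a1 on 7, Aqp2 on 6 and Slc12a3 on 2. The summed signal of the 6 was 74.9 to 100.5 units on the supplemented, 84.2 to 112 on the standard and 72.6 to 114 on the deficient arrays. Of 6 salivary markers listed, 2 were on the array, with summed signals of 14.0 to 34.3, 15.0 to 44.9 and 19.5 to 24.2 units on the same diets.

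**Figure D3:**
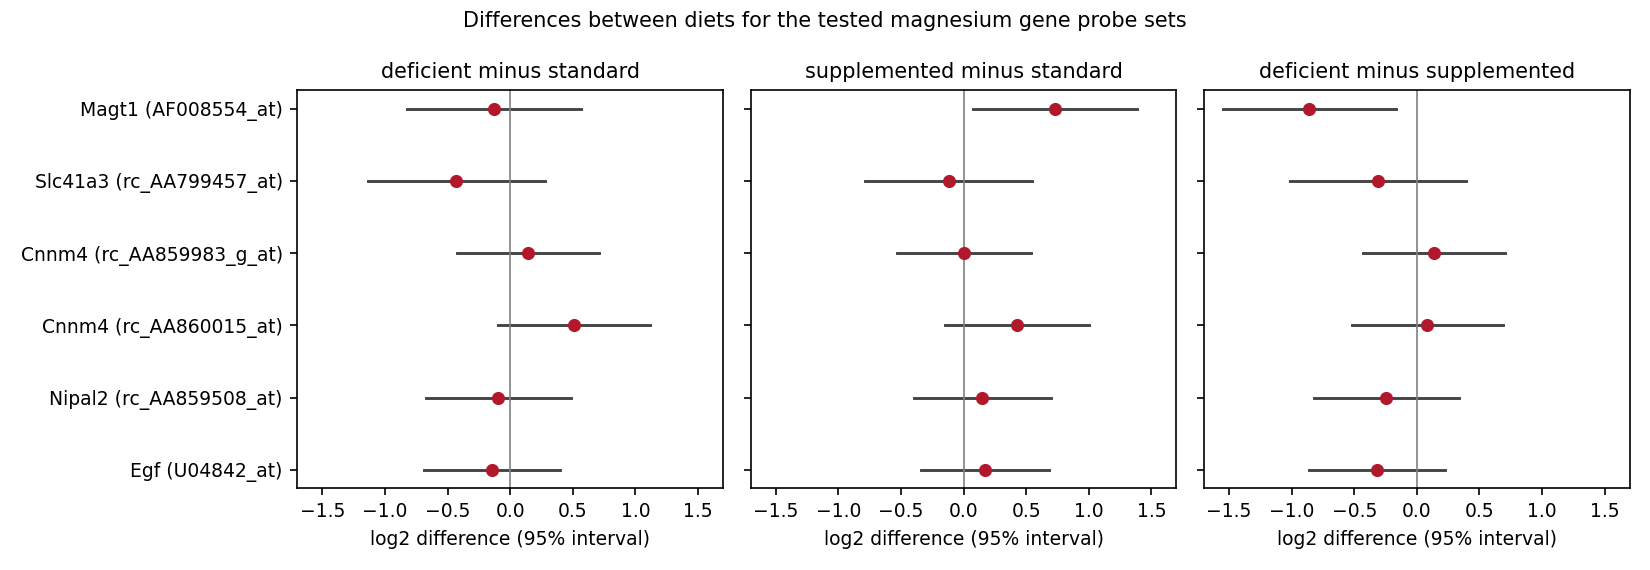
Log2 differences (horizontal axes, points) with 95% intervals (lines) for the 6 tested magnesium gene probe sets in deficient minus standard, supplemented minus standard and deficient minus supplemented. The Magt1 intervals leave 0 in the middle panel (0.73, from 0.076 to 1.38) and the right panel (-0.86, from -1.55 to -0.17), and the other intervals include 0.

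Across the 6 tested probe sets, 4 were lower and 2, both of Cnnm4, higher in deficient against standard. In supplemented against standard 5 were higher and 1, Slc41a3, lower, and in deficient against supplemented 4 were lower and the 2 of Cnnm4 higher. The comparisons share arrays in pairs, so these counts are not separate evidence. The test called 0 of the 6 in each comparison. Over all 5133 probe sets it called 0% in deficient against standard, 0% in supplemented against standard, and 0.0195% in deficient against supplemented and also in the F-test, which is the single gene Crispld2. In no comparison did the arrays of the 2 diets separate fully for any of the 6, whereas over all probe sets they did so for 1.44% in deficient against standard, 1.81% in supplemented against standard and 4.95% in deficient against supplemented.

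The genes did not share one profile from array to array, and pairs ran both alike and opposite. Of the 15 pairs of tested probe sets, the pair with the highest correlation was Magt1 and Egf, with r = 0.735 over the 14 arrays and 0.71 with diet means taken out. The lowest was Slc41a3 and Egf, with r = -0.518 and -0.704 with diet means taken out, and deficient array 14 was the lowest of all for Slc41a3 and the highest for Egf. With diet means taken out, r was -0.639 for Magt1 and Slc41a3 and -0.612 for Nipal2 and Egf. These are descriptions over arrays that share their RNA quality and scaling.

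For each gene the 3 others with the most similar profile over the 14 arrays were taken from the other 3072 genes tested. For Magt1 these were Ugt1a5, a glucuronosyltransferase gene whose exons are partly shared with its neighbours in the Ugt1a locus (r = 0.963), Acvr1, an activin and BMP receptor (r = 0.938), and Cap1, an actin-binding protein (r = 0.930). With diet means taken out r was 0.946, 0.896 and 0.891, and their own r with the Gapdh ratio was -0.733, -0.775 and -0.587. For Slc41a3 they were Scn3a (r = 0.933), Mpc1 (r = 0.865) and Oaz2 (r = 0.861), and without deficient array 14 r was 0.753, -0.016 and 0.350. For Cnnm4, read through rc_AA859983_g_at alone, they were Chmp2a (r = 0.878), Dlst (r = 0.846) and Ric8a (r = 0.827). The other tested Cnnm4 probe set had r = -0.231 with that one, so these likenesses do not stand for both. For Nipal2 they were Txnrd1 (r = 0.797), Rpl11 (r = 0.768) and Mcpt1l1 (r = 0.759). For Egf they were Stip1 (r = 0.844), Cap1 (r = 0.824) and Nat8b (r = 0.816). Cap1 was thus on the lists of both Magt1 and Egf.

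A wider list of 40 genes of magnesium transport and its control had 16 genes on the array, of which 10 were tested, the 5 above among them. The other 5 tested were Slc41a2, a relative of Slc41a3; Ptp4a1 and Ptp4a2, phosphatases that bind CNNM proteins; Egfr, the receptor of Egf; and Umod, which encodes uromodulin. In supplemented against standard 6 of the 10 were higher and 4 lower, with a median of 0.037 beside -0.034 over all genes tested. In deficient against supplemented 3 were higher and 7 lower, with a median of -0.19 beside 0.055, where 56.3% of all genes were higher. In deficient against standard 3 were higher and 7 lower, with a median of -0.11 beside 0.013. None was called in any comparison.

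Ptp4a2 had differences of the opposite sign to those of Magt1, none of them past the test. It read 8.25, 8.23, 8.14, 8.60 and 6.87 on supplemented arrays 1 to 5, between 8.46 and 8.99 on the standard arrays and between 8.51 and 8.97 on the deficient arrays. Supplemented array 5 was the lowest of its diet for both genes. Deficient minus supplemented was 0.82 ± 0.28 (SE; limma unadjusted p = 0.00934, adjusted p = 0.280), 0.54 without supplemented array 5 and 0.19 with the Gapdh ratio in the model. Supplemented minus standard was -0.66 ± 0.26 (SE; limma unadjusted p = 0.0227, adjusted p = 0.501), -0.38 without supplemented array 5 and -0.14 with the Gapdh ratio in the model. Slc41a2 differed little, with 9.62 ± 0.18 (SD, n = 5) supplemented, 9.54 ± 0.27 (SD, n = 5) standard and 9.48 ± 0.18 (SD, n = 4) deficient. Egfr was at 6.81 ± 0.53 (SD, n = 5), 6.85 ± 0.28 (SD, n = 5) and 6.73 ± 0.23 (SD, n = 4) in the same order.

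**Figure D4:**
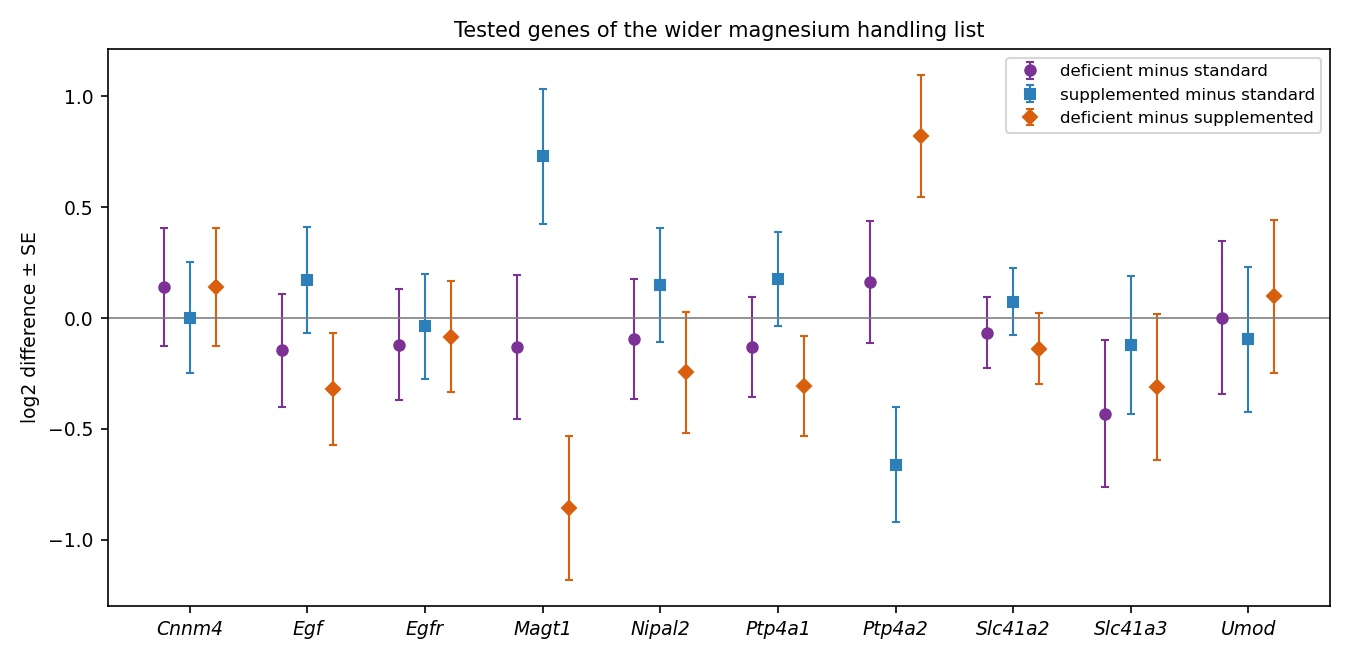
Log2 differences ± SE (vertical axis) of the 10 tested genes of the wider magnesium list in deficient minus standard (circles), supplemented minus standard (squares) and deficient minus supplemented (diamonds). Magt1 (0.73 and -0.86) and Ptp4a2 (-0.66 and 0.82) lie farthest from 0 in the 2 comparisons with the supplemented diet, and none of the 10 was called.

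The 6 genes of the wider list that were not tested were the kidney genes Slc12a1, Slc12a3, Fxyd2 and Kcnj10, the potassium channel gene Kcna1 and the calcium-sensing receptor gene Casr. Slc12a1 was at the floor on all 14 arrays.

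Around Egf, a list of 18 ligands, receptors, shedding enzymes and first adaptors had 14 genes on the array and 9 tested, Egf included. In supplemented against standard 4 were higher and 5 lower (median -0.037, beside -0.034 over all genes). In deficient against supplemented 4 were higher and 5 lower (median -0.012, beside 0.055), and in deficient against standard 7 were higher and 2 lower (median 0.037, beside 0.013). None was called. Tgfa, another ligand of the Egf receptor, had a deficient minus supplemented difference of 0.96 ± 0.47 (SE; limma unadjusted p = 0.0605, adjusted p = 0.411). That difference was 0.55 without supplemented array 5, where Tgfa was at the floor, and 0.15 with the Gapdh ratio in the model. Supplemented minus standard was at -0.86 for Tgfa (limma unadjusted p = 0.0735, adjusted p = 0.584), at -0.45 without that array and at -0.19 with the Gapdh ratio. Nrg1, a ligand of Erbb receptors, entered the counts through its brightest probe set, U02322_s_at. Another of its probe sets, M92430_at, had the smallest F-test p of the list (limma unadjusted p = 0.00840) and was picked after its values were seen. It was at -0.86 ± 0.24 (SE) in supplemented minus standard (limma unadjusted p = 0.00237, adjusted p = 0.474), and at -0.78 with the Gapdh ratio in the model. Its arrays did not overlap between these diets, as for 1.81% of all probe sets tested. M92430_at was picked for its small p, so that share does not measure chance for it. Its mean on the supplemented diet lay under the dim-signal level, as did its signals on supplemented arrays 2 and 5. In deficient minus supplemented M92430_at was at 0.48 ± 0.25 (SE, limma unadjusted p = 0.0745, adjusted p = 0.424). Other tested Nrg1 probe sets differed in sign for supplemented minus standard. U02322_s_at was at -0.85 (limma unadjusted p = 0.203) and U02315_g_at at 0.063 (limma unadjusted p = 0.858).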

How the data were processed

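The authors deposited a linear intensity for each of 8799 probe sets on each of the 14 arrays. Per the labels, targets came from about 5 µg of total RNA by standard Affymetrix procedures. The signal software is not given in the sources used here. Array medians differed by up to 1.91 times although the trimmed means (2% off each end) were equal at 150.0 units.

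Without the 59 control probe sets, arrays were quantile normalised on the log2 scale, floored at the pooled 20th percentile and kept when the mean passed the pooled 40th percentile, leaving 5133 probe sets. Limma 3.58.1 in R 4.3.3 (trended eBayes) fitted 1 model of the 3 diets, with Benjamini-Hochberg adjustment over all 5133 and two-sided p-values. Permutation tests of correlations used 100000 resamples. The fit was tested on simulated data. The brightest probe set stood for a gene in lists and likeness ranks. Symbols came from the platform annotation, where 7006 probe sets had 1 symbol, 308 several and 1426 none.

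Named were all probe sets of the 5 genes, all tested genes of the wider magnesium list, up to 4 others of each further list by F-test p, and the 3 genes most like each member. Differences of list genes are printed only at an unadjusted p under 0.1, a limit set after values were seen, and some named by the rule stand only in counts. Nrg1 M92430_at was added after values were seen. Members and lists were chosen with earlier results of these data known. Alternatives covered scaling, floor, filter, diets in the fit, variance model, RNA quality covariates and each array left out. Leaving out 3 arrays together was added after the data were seen.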

Additional observations from a re-analysis of the deposited data

Results flagged for a closer look

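In groups of 4 or 5 arrays, single arrays far from the rest were looked for in 80 groups of values, and 8 were found, where chance gives about 1 in 20. For Egf (X12748cds_s_at) these were standard array 9 at 3.40 and deficient array 14 at 3.19 on the log2 scale, with the other arrays of each diet at the floor of 1.97. Signals set to the same floor have no spread, so any single array above it is flagged. The Egf arrays can therefore not be set against chance. For Ptp4a2 they were supplemented array 5 at 6.87 (next 8.14) and deficient array 14 at 8.51 (next 8.93). Supplemented array 5 was also low for Nrg1 (U02322_s_at) at 2.37 (next 5.75), and for the receptor gene Erbb3 (U29339_at) at 2.40 (next 5.60). Another Erbb3 probe set, U52530_s_at, read 4.15 on that array, within the range of the other supplemented arrays. Umod was low on standard array 8, at 3.78 (next 5.53), and Ptp4a1 was high on supplemented array 2, at 10.14 (next 9.31).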

How the results depend on the processing

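No paired analysis was possible because array numbers run on from diet to diet and none is shared. The 18 differences of the magnesium genes were recomputed under each alternative, 462 values in all. In 437 the direction was kept, in 25 it was reversed, and no alternative brought one past the threshold. The Magt1 differences with the supplemented diet never reversed: supplemented minus standard lay between 0.35 and 0.85, and deficient minus supplemented between -1.16 and -0.34. Their unadjusted p did not stay under 0.05 throughout. For arrays centred on their median these differences were 0.64 and -0.66 (limma unadjusted p = 0.0896 and 0.101). With values as deposited, Slc41a3 supplemented minus standard was 0.060, and deficient minus supplemented was -0.013 for Cnnm4 rc_AA859983_g_at and -0.14 for rc_AA860015_at. With arrays centred on their median Cnnm4 rc_AA859983_g_at was at -0.063 for supplemented minus standard, and with array weights at -0.13, where rc_AA860015_at was at -0.040 for deficient minus supplemented. With the Gapdh ratio, supplemented minus standard was 0.16 for Slc41a3 and -0.0036 for Egf. With the beta-actin ratio Magt1 deficient minus standard was 0.063, Slc41a3 supplemented minus standard 0.087 and Cnnm4 rc_AA859983_g_at deficient minus supplemented -0.18. Without the 3 arrays that stood apart (supplemented 5, standard 10, deficient 13), Nipal2 deficient minus standard was 0.0015, Cnnm4 rc_AA859983_g_at supplemented minus standard -0.057 and rc_AA860015_at deficient minus supplemented -0.065. With 1 array left out, deficient minus standard ran from -0.44 to 0.13 for Magt1 and from -0.67 to 0.023 for Slc41a3. Supplemented minus standard ran from -0.20 to 0.14 for Cnnm4 rc_AA859983_g_at and from -0.023 to 0.29 for Nipal2, and deficient minus supplemented from -0.54 to 0.14 for Slc41a3 and from -0.055 to 0.27 for Cnnm4 rc_AA860015_at. The cause of these reversals was not tested. Over all probe sets, the deficient against standard count of 0 (156 at an unadjusted p under 0.05) was 1 with no filter. The supplemented against standard count of 0 (456 unadjusted) was 1 with a floor at the 30th percentile, without the trend or with array weights, and 0 to 2 with 1 array left out. The deficient against supplemented count of 1 was 2 with no filter, and 0 with values as deposited, a filter at the 50th percentile, only 2 diets, either ratio or the 3 arrays out, and 0 to 4 with 1 array left out, being 4 without deficient array 14 and 3 without supplemented array 2. The F-test count of 1 was 2 with no filter, 0 with values as deposited, the stricter filter, either ratio or the 3 arrays out, and 0 to 3 with 1 array left out, the 3 without supplemented array 2. Under the stricter filter Slc41a3 and Cnnm4 rc_AA860015_at were too dim to be tested. The 7 printed differences of list genes (Ptp4a2, Ddost, Tgfa and Nrg1 M92430_at) kept their direction in 178 of 178 runs. They were picked by an unadjusted p under 0.1 in these same arrays, so kept directions are no separate evidence. The number of arrays limits precision, and dim signals near the floor understate change.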
